A study of Homo sapiens with 6 samples.

Results

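The genes described here are 10 heat shock protein and chaperone genes, taken by name from the 19812 protein-coding genes of the annotation: HSPA1A, HSPA1B, HSPA5, HSPA8, HSP90AA1, HSP90AB1, HSPH1, DNAJB1, HSPD1 and HSPE1. All 10 were matched by symbol. The data were lists of SUMO-2/3 peaks from chromatin immunoprecipitation and sequencing (ChIP-seq) in HL-60, an established human acute myeloid leukaemia cell line. HL-60 cells were given water (mock), 2 µM cytarabine (Ara-C, a nucleoside analogue) or 1 µM daunorubicin (DNR, an anthracycline), each for 2 h. Each immunoprecipitation took 2 µg of antibody, and material of 3 biological replicates was pooled into 1 library per condition. There was thus 1 peak list per condition and no replicate check, so values are given without tests. The study asked whether these drugs redistribute SUMOylated proteins on the genome, and the question here is where chaperone genes carried peaks in each condition.

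Chaperones of the HSP70 and HSP90 families bind unfolded or unfinished proteins and use ATP to help them fold, with J-domain proteins (HSP40) and HSP110 acting as partners of HSP70. Many of their genes are switched on by heat shock factor 1 (HSF1), which binds heat shock elements, arrays of the 5-base unit NGAAN in alternating orientation. SUMO-2 and SUMO-3 are small ubiquitin-like proteins that are conjugated to other proteins, among them many transcription factors, HSF1 included. A SUMO-2/3 peak marks chromatin near such conjugates and does not name the conjugated protein.

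The mock list held 44265 peaks, the Ara-C list 72279 and the DNR list 33355, with a median width of 150 bp in each. A peak was a stretch where the input-subtracted signal passed 1 fixed value, and 150 bp is the shortest stretch that could be called. The lists give positions only, so that depth and peak height are unknown, and a missing peak means that no stretch met the call, not that signal was absent. Depth, scaling and treatment cannot be told apart. Of the marker genes of cell types, 3 of 6 myeloid marker genes had a peak near a transcription start site (TSS) in mock, 3 with Ara-C and 1 with DNR, against 0 of 6 T cell, B cell and liver genes in every list. The backgrounds over all coding genes were 25.3%, 30.8% and 8.42%, and lists of 6 genes cannot be told from them, so that this is no check of the cell type.

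The promoters of HSPA1A and HSPA1B are shown first because these classical heat-inducible HSP70 genes held no peak in any list. All sequences here are reference sequence of GRCh37, the assembly underlying hg19, read 5′ to 3′ on the strand of the gene. Capitals mark heat shock pairs, which are GAANNTTC or TTCNNGAA. The stretches end 1 base before the TSS, at chr6:31783120-31783319 and chr6:31795315-31795514, on the plus strand.
HSPA1A promoter: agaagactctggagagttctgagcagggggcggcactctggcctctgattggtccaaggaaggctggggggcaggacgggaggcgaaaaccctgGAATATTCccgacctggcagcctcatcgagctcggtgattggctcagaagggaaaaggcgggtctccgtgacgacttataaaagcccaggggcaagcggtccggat
HSPA1B promoter: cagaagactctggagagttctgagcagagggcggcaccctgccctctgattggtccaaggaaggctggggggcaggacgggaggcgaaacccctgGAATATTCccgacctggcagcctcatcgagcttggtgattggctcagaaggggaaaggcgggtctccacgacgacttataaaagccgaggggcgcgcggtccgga

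The promoter stretches of HSPA5 and HSP90AB1 are shown because each lay in a peak of a single list, Ara-C for HSPA5 and mock for HSP90AB1. The HSPA5 stretch is chr9:128003662-128003850 on the minus strand, with CCAAT boxes (CCAAT or ATTGG) and the endoplasmic reticulum stress element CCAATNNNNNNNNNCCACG in capitals. The HSP90AB1 stretch is chr6:44214601-44214823 on the plus strand, with GC boxes (GGGCGG or CCGCCC) in capitals.
HSPA5 promoter within the Ara-C peak: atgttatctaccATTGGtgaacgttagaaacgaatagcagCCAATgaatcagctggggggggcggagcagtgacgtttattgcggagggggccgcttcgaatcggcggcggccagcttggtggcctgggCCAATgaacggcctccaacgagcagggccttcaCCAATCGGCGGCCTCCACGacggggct
HSP90AB1 promoter within the mock peak: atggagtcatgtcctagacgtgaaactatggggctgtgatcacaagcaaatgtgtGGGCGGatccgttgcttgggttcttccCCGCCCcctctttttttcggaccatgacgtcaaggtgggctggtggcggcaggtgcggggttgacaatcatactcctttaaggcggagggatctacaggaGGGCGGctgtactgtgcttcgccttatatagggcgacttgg

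Stretches with heat shock pairs of HSPD1, HSPH1, HSPA8, HSP90AA1 and DNAJB1 are shown because some lay inside a peak and some outside. All 5 are on the minus strand, and capitals again mark heat shock pairs, which overlap where they form a longer element. In DNAJB1 the 2 pairs are separate. The positions are chr2:198364785-198364814 for HSPD1, chr13:31736065-31736118 for HSPH1, chr11:122932879-122932908 for HSPA8, chr14:102553382-102553501 for HSP90AA1 and chr19:14629220-14629329 for DNAJB1.
HSPD1, inside the peak of mock and Ara-C: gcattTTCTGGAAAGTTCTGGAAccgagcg
HSPH1, inside a mock peak: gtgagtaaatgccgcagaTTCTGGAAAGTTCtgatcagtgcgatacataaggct
HSPA8, in no peak: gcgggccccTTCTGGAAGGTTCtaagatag
HSP90AA1, last 69 bases in an Ara-C peak: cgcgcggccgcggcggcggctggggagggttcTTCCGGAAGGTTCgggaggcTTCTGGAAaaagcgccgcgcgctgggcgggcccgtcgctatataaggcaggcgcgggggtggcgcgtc
DNAJB1, in no peak: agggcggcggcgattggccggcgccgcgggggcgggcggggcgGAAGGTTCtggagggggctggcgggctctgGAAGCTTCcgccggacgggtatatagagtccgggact

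A TSS window ran from 2 kb upstream to 1 kb downstream of any TSS of the gene, and a peak counted with 1 bp inside it. In mock-treated cells, 6 of the 10 genes had a window peak (95% Wilson interval 31.3 to 83.2%), against 25.3% of all coding genes. Under Ara-C the number was 5 of 10 (23.7 to 76.3%) against 30.8%, and under DNR it was 1 of 10 (1.79 to 40.4%) against 8.42%. HSPD1 and HSPE1 share 1 peak in mock and under Ara-C, so that the counts are not over independent peaks. The Ara-C and DNR intervals held their backgrounds, and the mock interval did not. With the TSSs of all annotated transcripts the mock count was again 6 and the background 31.6%, inside the interval. In the other settings the mock background stayed below the interval of that setting. With peaks of at least 200 bp alone, the Ara-C count was again 5 and its background 21.6%, below the interval. These intervals cover counting error only, and the genes are not replicates of a condition. The 10 genes were also chosen with earlier results of these data known, so no interval here tests for an excess.

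The windows of these genes were longer than usual, since several have many TSSs, with a median of 4.09 kb against 3.06 kb over all coding genes. With the canonical TSS of each gene alone, which gives every gene a window of 3 kb, the numbers were again 6, 5 and 1. The background shares were then 22.6% in mock, 27.3% with Ara-C and 6.54% with DNR.

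A peak lying on a TSS itself was present at 4 genes in mock (16.8 to 68.7%) against 7.52% of coding genes, at 5 under Ara-C (23.7 to 76.3%) against 9.41%, and at 0 under DNR (upper limit 27.8%) against 0.722%. These genes had a median of 3 TSSs against 2 over all coding genes, and HSPD1 and HSPE1 counted the same peak. On the canonical TSS alone the counts were 2 in mock (5.67 to 51.0%) against 5.46%, 4 with Ara-C (16.8 to 68.7%) against 6.72% and 0 with DNR against 0.353%. Window peaks of 300 bp or more were present at 5 genes in mock against 6.69% of coding genes, 3 under Ara-C against 7.79% and 0 under DNR against 0.732%. The DNR upper limits hold these backgrounds, so that 10 genes could not show a lower share there.

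**Figure D1:**
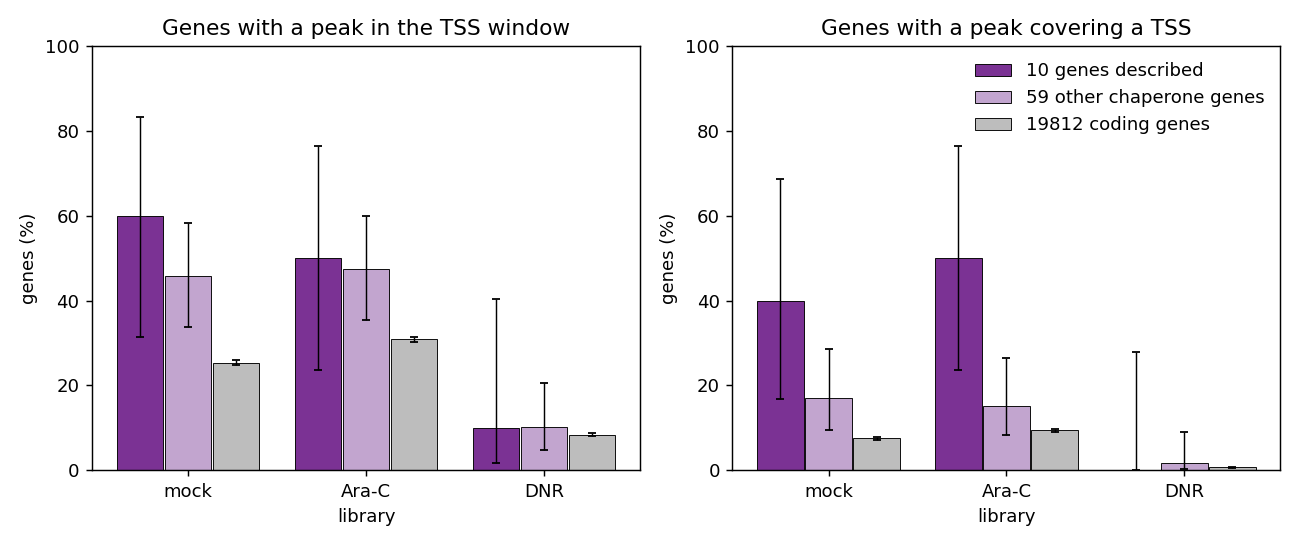
Share of genes (%) with a peak in the TSS window (left) and with a peak covering a TSS (right) in the mock, Ara-C and DNR libraries, for the 10 genes, 59 other chaperone genes and all 19812 coding genes, with 95% Wilson intervals as error bars that cover counting error only. Of the 10 genes, 6 had a window peak in mock, 5 with Ara-C and 1 with DNR.

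Windows and gene bodies of the 10 genes together held 15 distinct peaks in mock, 15 with Ara-C and 4 with DNR. They were 150 to 400 bp wide in mock, 150 to 500 bp under Ara-C and 150 to 200 bp under DNR. Of the 15 mock peaks, 3 were overlapped by an Ara-C peak (7.05 to 45.2%), against 17.7% of the mock peaks in windows and bodies of all coding genes. A DNR peak overlapped 1 of the 15 (1.19 to 29.8%) against 2.85%, and 0 of the 15 Ara-C peaks (upper limit 20.4%) against 2.16%. All 3 intervals held the share over coding genes. Among distinct window peaks, 3 of the 10 in mock were overlapped under Ara-C (10.8 to 60.3%) against 36.3% over all coding genes, and 0 under DNR (upper limit 27.8%) against 4.18%.

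**Figure D2:**
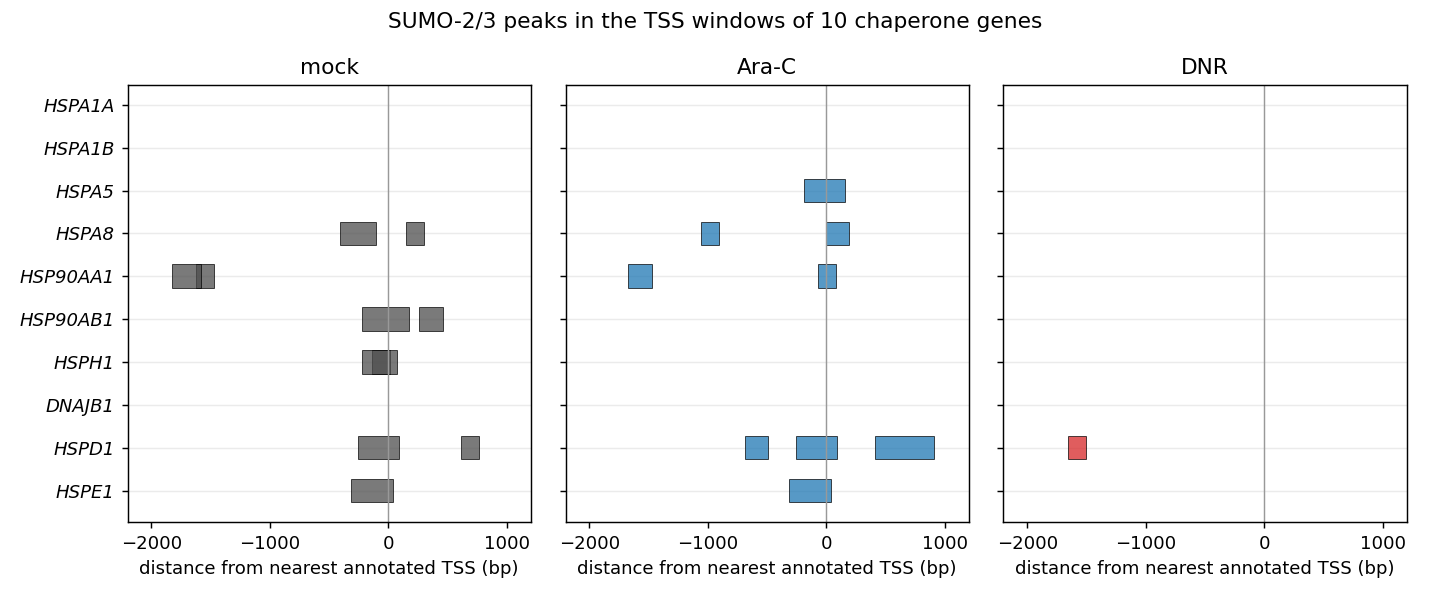
Peaks in the TSS windows of the 10 genes, with 1 panel per library. The x axis is the distance in bp from the TSS nearest to each peak, upstream to the left, and each bar has the width of its peak. Bars of HSP90AA1 and HSPH1 in mock touch only because they are drawn against different TSSs. Peaks sat at 6 genes in mock, 5 with Ara-C and 1 with DNR.

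The HSP70 family differed from gene to gene. HSPA1A (chr6:31783320-31785723) and HSPA1B (chr6:31795515-31798031), which encode nearly identical stress-inducible HSP70 proteins, had no peak in window or body in the mock, Ara-C or DNR list. From the HSPA1A TSS the nearest peak was 22.1 kb away in mock, 12.0 kb under Ara-C and 36.9 kb under DNR. From the HSPA1B TSS it was 9.94 kb, 12.3 kb and 49.1 kb. A gene without a window peak in any list was common, as 56.2% of coding genes had none. In the interval from 29 to 33 Mb of chromosome 6, which holds the major histocompatibility complex, 31.6% of 152 coding genes had a window peak in mock, 48.7% with Ara-C and 9.87% with DNR. The intervals in mock (24.7 to 39.3%) and with DNR (6.07 to 15.6%) held the shares over all coding genes, 25.3% and 8.42%, and that with Ara-C (40.9 to 56.6%) lay above 30.8%.

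Only uniquely placed reads had been kept, and HSPA1A and HSPA1B are close copies, so the share of possible 50-base reads with a second exact copy in the genome was computed. It was 28.9% over the HSPA1A window and 32% over the HSPA1B window. The median over coding genes was 1.53%, and 5.02% of them exceeded 25%. Over the genes themselves the share was 73.5% and 70.2%, so that most reads from each gene could not be placed uniquely. In the 250 bp upstream of the TSS the share was 0% at both genes, although the last 200 bp before the TSS were 93.5% identical between them. From the TSS to 1 kb downstream, 79.2% and 79.3% of reads had a copy. Copies with mismatches were not counted, and the part of repeated sequence in the missing peaks was not tested. At the other 8 genes the share over the window was between 0% and 6.06%.

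**Figure D3:**
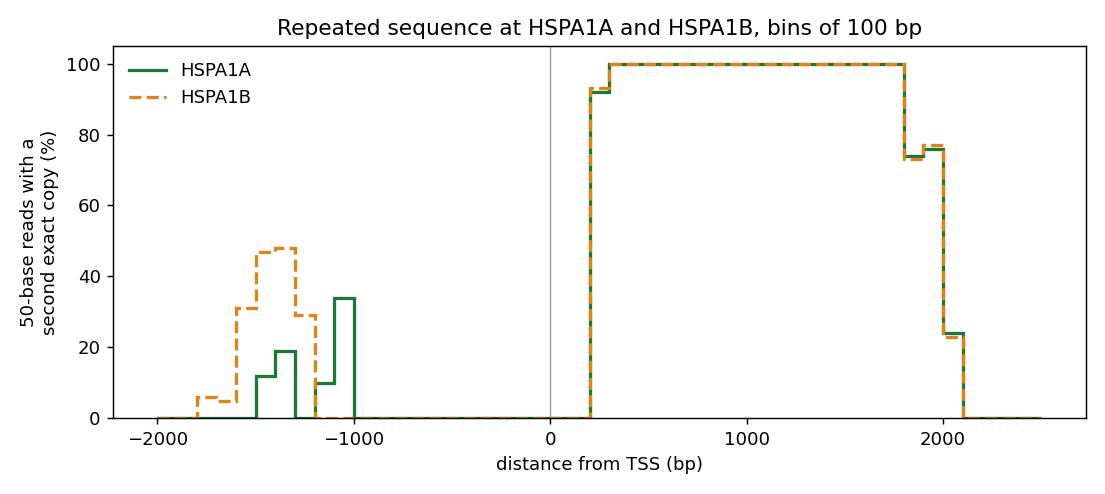
Share (%) of 50-base reads with a second exact copy in the genome, in bins of 100 bp by distance (bp) from the TSS of HSPA1A (solid) and HSPA1B (dashed). It was 0% in the 250 bp upstream of both TSSs and 79.2% (HSPA1A) and 79.3% (HSPA1B) over the 1 kb downstream.

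HSPA5 (chr9:127997132-128003661, minus strand) encodes BiP, the HSP70 of the endoplasmic reticulum and a classical target of the unfolded protein response. In mock it had no window peak and 1 peak of 150 bp at the 3′ end of the gene, of which 69 bases were inside it. Under Ara-C a peak of 350 bp (chr9:128003501-128003850) lay across the TSS, and a peak of 200 bp lay in the 3′ untranslated region, 250 bp from the mock peak. Under DNR there was none, and the nearest was 100579 bp from the TSS. HSPA5 was the only one of the 10 genes with a window peak under Ara-C alone, a pattern seen at 13.6% of coding genes.

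The Ara-C peak of HSPA5 held the endoplasmic reticulum stress element, which lies 47 bp upstream of the canonical TSS. That element was present in the 250 bp upstream of 0.101% of coding genes and in 0.0716% of all Ara-C window peaks. It was searched after the peaks were known, on both strands, and its letters overlap a CCAAT box.

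HSPA8 (chr11:122928197-122933938, minus strand) encodes HSC70, the constitutive cytosolic HSP70. In mock it had window peaks of 150 and 300 bp, at chr11:122932201-122932350 and chr11:122933151-122933450. Under Ara-C it had peaks of 200 and 150 bp, at chr11:122932651-122932850 and chr11:122933951-122934100, and under DNR it had none, the nearest being 5.94 kb from the TSS. Only the 200 bp peak under Ara-C covered a TSS. HSPA8 thus counted as a gene with window peaks in mock and under Ara-C, but none of these peaks overlapped, with 300 bp the smallest gap.

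The HSP90 pair, cytosolic chaperones of kinases and nuclear receptors, also parted. HSP90AB1 (chr6:44213903-44221625), the constitutive form, had a mock peak of 400 bp across its TSS (chr6:44214601-44215000) and another of 200 bp, 263 bp downstream of the TSS. The wider peak was the widest mock window peak of the 10 genes. It had none under Ara-C or DNR, where the nearest peaks were 7.81 kb and 21.6 kb from the TSS.

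HSP90AA1 (chr14:102547079-102606036, minus strand), the inducible form, had mock window peaks of 150 and 250 bp, both over 1 kb upstream of a TSS. The 250 bp peak (chr14:102607601-102607850) lay by the distal TSS, outside the gene and in WDR20, so that it cannot be given to either gene. Under Ara-C a peak of 200 bp (chr14:102554851-102555050) covered the whole of the 150 bp mock peak, and a peak of 150 bp (chr14:102553301-102553450) lay across the canonical TSS. Its window was empty under DNR. In the body of this gene of 59 kb, mock gave 1 peak, Ara-C 4 and DNR 2, none at a shared position. Of the 10 genes it had the most body peaks under Ara-C and under DNR.

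HSPH1 and DNAJB1 encode partners of HSP70, an HSP110 nucleotide exchange factor and an HSP40 J-domain protein. HSPH1 (chr13:31709110-31736525, minus strand) had mock peaks of 150 bp (chr13:31736051-31736200) and 300 bp (chr13:31736451-31736750), each across a TSS, and a body peak of 150 bp. Under Ara-C and DNR it had no peak in window or body, and the nearest were 37.8 kb and 26.1 kb away. The Ara-C distance was the largest of the 10 genes in that list. HSP90AB1 and HSPH1 were the genes with window peaks in mock alone, a pattern of 8.5% of coding genes.

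The part of the 300 bp HSPH1 peak outside exons held the letters TCCCANNATGC, in capitals below, at chr13:31736526-31736750 on the minus strand. This motif, searched on both strands after the peaks were known, was present in 0.696% of mock window peaks. The whole peak held 2 matches, and the HSPD1 peak of the DNR list held 1, against 0.708% of DNR window peaks. In the 250 bp upstream of the canonical TSS it was found at none of the 10 genes, HSPH1 included, against 0.939% of coding genes.
HSPH1 wider mock peak, part outside exons: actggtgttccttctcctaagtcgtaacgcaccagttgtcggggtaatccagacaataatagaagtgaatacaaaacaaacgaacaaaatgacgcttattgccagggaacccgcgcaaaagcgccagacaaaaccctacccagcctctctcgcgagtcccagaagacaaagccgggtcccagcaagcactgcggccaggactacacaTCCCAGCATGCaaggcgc

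DNAJB1 (chr19:14625581-14671203, minus strand) had no window peak in any list, although its 18 TSSs gave it the longest window of the 10 genes, 13.5 kb. In the gene body it had 2 peaks of 200 bp in mock, 2 of 150 bp under Ara-C and 1 of 200 bp under DNR. The DNR peak, at chr19:14667551-14667750, had the same start and end as a mock peak. Only 59 peaks were identical in this way in the mock and DNR lists, 0.133% of mock peaks. It lies in an intron of DNAJB1 that overlaps TECR, a gene of fatty acid elongation, so that it cannot be given to either gene. It is shown as the only peak of the 10 genes at a shared position in mock and under DNR, on the minus strand and without capitals.
DNAJB1 intron peak of mock and DNR: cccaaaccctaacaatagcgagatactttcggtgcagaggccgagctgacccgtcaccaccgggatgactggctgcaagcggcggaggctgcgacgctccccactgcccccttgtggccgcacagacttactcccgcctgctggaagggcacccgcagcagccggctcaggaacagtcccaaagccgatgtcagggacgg

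HSPD1 and HSPE1 encode HSP60 and HSP10, the barrel and lid of the mitochondrial chaperonin, and are transcribed in opposite directions from a shared promoter on chromosome 2. A peak of 350 bp, chr2:198364551-198364900, lay across a TSS of each and had the same start and end in mock and under Ara-C. Such identity was rare, at 428 peaks or 0.967% of the mock list. It was the only window peak of HSPE1 (chr2:198364864-198368173), and it also lies in the window of the readthrough gene HSPE1-MOB4.

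HSPD1 (chr2:198351308-198381461, minus strand) had further window peaks at its distal TSS, in sequence shared with MOB4. In mock there was 1 of 150 bp (chr2:198380701-198380850). Under Ara-C a peak of 500 bp (chr2:198380551-198381050) contained it, and another of 200 bp lay upstream of that TSS (nearest edge at -490 bp). The 500 bp peak was the widest Ara-C peak of the 10 genes. Under DNR the shared promoter peak was not called, and a peak of 150 bp (chr2:198366501-198366650) lay in an intron of HSPE1, 1600 bp from the promoter peak. HSPD1 was therefore the only one of the 10 genes with a window peak in all 3 lists, a pattern of 2.49% of coding genes, but its DNR peak was at another position.

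Over the lists, HSPA8, HSP90AA1 and HSPE1 had window peaks in mock and under Ara-C without DNR, as 13.2% of coding genes had. No gene of the 10 combined DNR with mock only (1.01% of coding genes) or with Ara-C only (1.46%), and none had a window peak under DNR alone (3.46%).

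**Figure D4:**
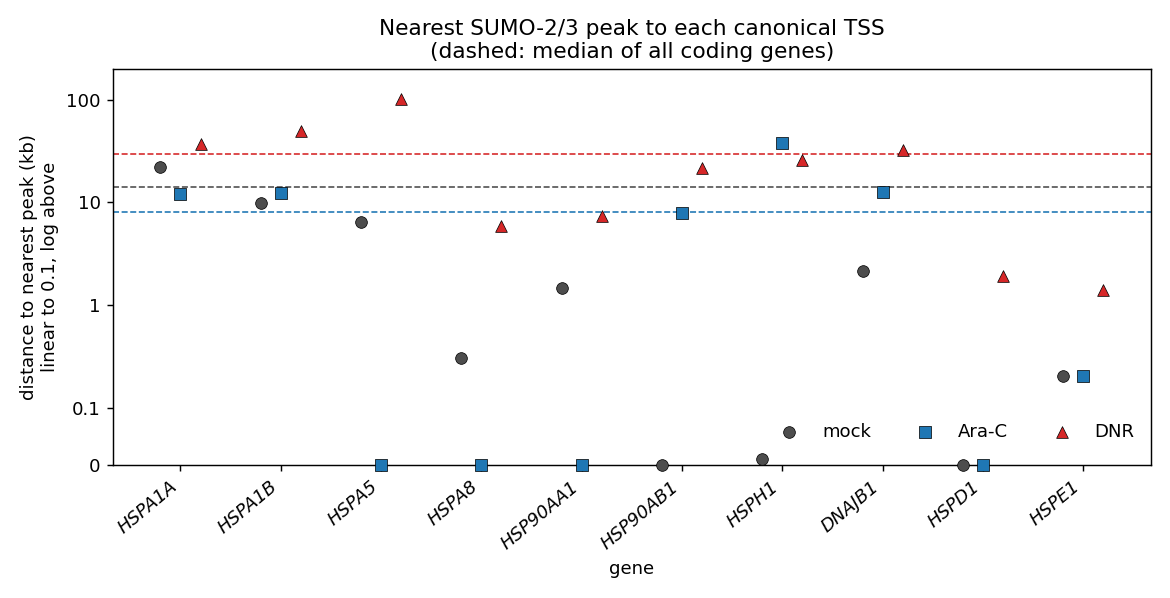
Distance (kb; linear up to 0.1 kb and logarithmic above) from the canonical TSS of each gene to the nearest peak in mock (circles), Ara-C (squares) and DNR (triangles), with dashed lines at the median of all coding genes in each list. The median of the 10 genes was 0.888 kb in mock, 4.01 kb under Ara-C and 23.8 kb under DNR.

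Distance, measured to the same peak lists, gave the same order without a window. The median from the canonical TSS to the nearest peak was 0.888 kb in mock against 14.2 kb over all coding genes, 4.01 kb against 8.0 kb under Ara-C and 23.8 kb against 29.5 kb under DNR. The quartiles of the 10 genes were 0.0583 to 5.36 kb, 0 to 12.2 kb and 6.29 to 35.7 kb. Over all coding genes they were 2.12 to 46.4 kb, 1.08 to 26.2 kb and 9.78 to 79.9 kb. HSPD1 and HSPE1 shared their nearest peak in every list, and HSPA1A and HSPA1B did so in mock and under DNR. In the plot of nearest peaks, every DNR distance was at least 1.4 kb, whereas 2 genes in mock and 4 under Ara-C had a peak on the canonical TSS itself. The DNR list was also the shortest.

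The overlap of window peaks was then compared with the mock list. Of the 6 genes with a mock window peak, 3 had such a peak overlapped under Ara-C, namely HSP90AA1, HSPD1 and HSPE1 (18.8 to 81.2%), against 42.3% of the coding genes with a mock window peak. None of the 6 had one overlapped under DNR (upper limit 39.0%), against 5.18%. Any window peak, at whatever position, was present under Ara-C at 4 of the 6 against 62.3%, and under DNR at 1 against 13.9%. Neither share could be told from its background with 6 genes. Both comparisons used the same mock library.

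The 10 genes were shorter than most, with a median length of 7.13 kb against 27 kb over all coding genes, which bears on any count over gene bodies. Outside the window, a body peak was present at 4 genes in mock, 3 with Ara-C and 3 with DNR, against 39.3%, 50.3% and 33.4% of coding genes. Per 100 kb of gene length there were 2.63, 3.68 and 2.1 body peaks, against 1.49, 2.5 and 1.19 over all coding genes, a density rather than a share of genes. These densities rest on 5, 7 and 4 peaks, and HSP90AA1 gave 4 of the 7 under Ara-C. Window peaks were left out of them, while the full gene length was the divisor. The DNR body peak of HSPE1 is also the window peak of HSPD1. No peak in window or body was found at 2 genes in mock, 4 with Ara-C and 6 with DNR, against 48.1%, 37.9% and 62.1%.

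Heat shock elements were then set against the peaks. The element of 3 units, which is GAANNTTC extended by NNGAA or TTCNNGAA extended by NNTTC, was searched in the 250 bp upstream of the canonical TSS on both strands. It was present at HSPA8, HSP90AA1, HSPH1 and HSPD1, against 0.323% of coding genes. The pair GAANNTTC was present at 7 of the 10 genes against 4.67%, and TTCNNGAA at 4 against 5.38%; a match of 3 units contains both pairs. CCAAT was present at 6 genes against 34.2%, GGGCGG at all 10 against 58.9%, and TATAAA at HSPA1A and HSPA1B against 9.36%. The core motif of the insulator protein CTCF was present at none, against 0.313% of coding genes. It was also in none of their peaks, against 1.89% of all window peaks in mock, 1.58% with Ara-C and 0.826% with DNR. So few peaks could not show a lower share.

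Peaks were present at promoters with and without an element of 3 units. In the promoter shared by HSPD1 and HSPE1 it lay inside the peak of mock and Ara-C, with 2 overlapping matches, and in HSPH1 it lay inside the 150 bp mock peak. In HSPA8 it lay in no peak. In HSP90AA1 it lay upstream of the bases covered by the Ara-C peak, which held a single pair. HSPA5 and HSP90AB1 had peaks across the TSS and no element, and HSPA1A, HSPA1B and DNAJB1 had a pair and no window peak. Among all window peaks the element was present in 0.421% in mock, 0.287% with Ara-C and 0.59% with DNR. A match of letters is a description and not evidence of binding.

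The other chaperone genes were described by a list of 59. A window peak was present at 27 in mock (45.8%, 33.7 to 58.3), 28 under Ara-C (47.5%, 35.3 to 60) and 6 under DNR (10.2%, 4.74 to 20.5), against the backgrounds of 25.3%, 30.8% and 8.42%. The DNR interval held its background and the mock and Ara-C intervals did not. The list was chosen with earlier results of these data known, so this is no test of an excess. With only the 5′ end of each gene, 22 of the 59 had an Ara-C window peak (26.1 to 50%) against 26.4% of coding genes, which lies inside the interval. Of the 27 genes with a mock window peak, 11 had one overlapped under Ara-C (40.7%, 24.5 to 59.3) and 3 under DNR (11.1%, 3.85 to 28.1). Over all coding genes with a mock window peak the shares were 42.3% and 5.18%, and both intervals held them.

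By role, chaperones of the endoplasmic reticulum had window peaks at 7 of 10 genes in mock, 5 with Ara-C and 1 with DNR. J-domain proteins had them at 4, 5 and 1 of 6 genes, and subunits of the cytosolic chaperonin CCT at 4, 5 and 0 of 8. Co-chaperones of HSP90 had them at 4, 4 and 1 of 9, and co-chaperones of HSP70 at 2, 1 and 0 of 5. Mitochondrial chaperones had them at 2, 2 and 1 of 4. The other cytosolic HSP70 and HSP110 genes had them at 2, 1 and 1 of 7, and genes listed as small heat shock proteins at 1, 2 and 1 of 4. HSPB11, which the annotation names IFT25, was the only gene of the latter role in mock and 1 of the 2 under Ara-C. Heat shock regulators and other targets had window peaks at 1, 3 and 0 of 6. Numbers per role were too small to set one role against another.

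CALR, which encodes the calcium-binding chaperone calreticulin, had the widest window peak of the list under Ara-C and was level with DNAJA1 in mock. Its TSS peak was 550 bp in mock and 800 bp under Ara-C, and its only window peak under DNR was 150 bp wide and lay inside a 500 bp peak that mock and Ara-C had upstream of the TSS (nearest edge at -723 bp). Other wide window peaks in mock were those of DNAJA1 (550 bp), CLPB (400 bp) and CDC37 (350 bp), and under Ara-C those of CLPB (500 bp), STIP1 (450 bp) and HSPA9 (400 bp). DNAJA1 is an HSP40, CLPB a mitochondrial disaggregase, CDC37 and STIP1 partners of HSP90, and HSPA9 the mitochondrial HSP70. DNAJA1, CDC37, STIP1 and HSPA9 had no window peak under DNR.

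Window peaks under DNR were present at CALR, CLPB, DNAJB6, HSPA6, FKBP5 and HSPB8, all 150 or 200 bp wide. Those of CALR, CLPB and HSPA6 overlapped peaks of mock and of Ara-C. HSPA6 is a strictly heat-inducible HSP70, and its DNR peak of 200 bp shared 150 bp with a mock peak of 350 bp. In contrast to HSPA1A and HSPA1B, it had window peaks in every list, as 2.49% of coding genes had. The share of reads with a second copy is not given for HSPA6.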

How the data were processed

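The authors sequenced single-end reads of 50 bases, aligned them to hg19 with CASAVA 1.8.2 and processed them in Pasha, which kept uniquely placed reads. They went on to remove piled-up reads (threshold 5 in mock, 4 in the drug libraries), extend reads (to 210 bp in mock and Ara-C, 220 bp in DNR), count them in bins of 50 bp, scale and subtract the input. Peaks were stretches over 100 bp long with signal above 32, bridging gaps no longer than 100 bp. The deposited files hold the chromosome, start and end of each peak, with no score, height, p-value or count. Positions are printed 1-based. A fixed signal value makes the number of peaks depend on depth and scaling. Of the 6 samples, 3 are inputs and were not analysed here.

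Genes and 55871 TSSs of basic protein-coding transcripts came from GENCODE 44 lifted to GRCh37. Of the coding genes, 280 had no transcript tagged canonical. The mitochondrial chromosome was left out. Window counts were checked against bedtools 2.31.1, with 0 genes differing. Wilson intervals are at the 95% level. Read copies were exact matches on either strand of the primary assembly. Steps were tested on simulated data. Python 3.11.15, numpy 2.4.6, scipy 1.17.1, numba 0.67.0, biopython 1.88 and matplotlib 3.10.9 were used.

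The 10 genes and the list of 59 were chosen with earlier results of these data known. One of the 59, HSPB11, was matched through an older symbol. Named from the list were genes with a DNR window peak and the 5 with the widest window peak in mock and under Ara-C, of which 1 gene is not reported here. Alternatives covered peak width, window, TSS set and overlap rule. The canonical TSS alone, the motifs of the endoplasmic reticulum stress element and TCCCANNATGC, and the interval on chromosome 6 were chosen after seeing the data.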

Additional observations from a re-analysis of the deposited data

How the results depend on the processing

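Across 28 results and 12 alternative settings, 108 of 135 values stayed within 1.5 times the value given, and 27 did not. The number of genes with a window peak among the 10 stayed within 1.5 times under every setting in mock and under Ara-C, while the mock background moved between 17.5% and 36.2% of coding genes. With the TSSs of all annotated transcripts it was 31.6%, inside the interval of the 10 genes (31.3 to 83.2%). In the other settings it stayed below the interval of that setting. With peaks of at least 200 bp alone, the Ara-C background of 21.6% lay below the interval of the 10 genes (23.7 to 76.3%). With the 5′ end alone, the Ara-C background of 26.4% lay inside the interval of the 59 genes (26.1 to 50%). With the canonical TSS alone, a TSS was covered at 2 of the 10 genes in mock and at 70 coding genes under DNR.

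With peaks of at least 200 bp alone, distinct window peaks fell to 6 in mock and 0 under DNR, genes with a DNR window peak to 0 of the 10, 2 of the 59 and 847 coding genes, genes with a body peak to 2 in mock and 1 under DNR, and coding genes with a mock window peak overlapped under DNR to 160, while the median DNR distance became 41.2 kb. With windows of 5 kb on either side, distinct window peaks became 13 under Ara-C and 3 under DNR, and genes with a DNR window peak 4 of the 10, 11 of the 59 and 3663 coding genes. With windows of 1 kb on either side, or the 5′ end of each gene alone, the 10 genes had 0 window peaks under DNR. The TSSs of all annotated transcripts gave 2 of the 10 and 2961 coding genes under DNR. Counting peaks anywhere between gene start and end gave 8 of the 10 genes in mock and 6 under Ara-C. The share over all coding genes was not computed under that rule, so these counts have no background. Counting any DNR window peak of the gene gave 1 of the 6 genes with a mock window peak and 694 coding genes, and accepting a peak within 500 bp gave 404 coding genes. Larger windows and narrower peaks admit more peaks by construction.

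No paired analysis was possible because only 1 pooled library was made per condition. The DNR results rest on 4 peaks, 3 of them of the shortest callable width. Differences between conditions have no replicate check, and depth is unknown.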
